A study of Mus musculus with 16 samples.

Results

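The genes described are 10 of the 47643 Ensembl identifiers measured in the series: Vim, Lmna, Crip1, Pdlim4, Ahnak, Flna, Evl, Daam1, Lgals1 and Lgals3. They are cytoskeletal, LIM-domain and galectin genes linked to T cell memory and motility, and they were listed by symbol with results of these libraries known. They count as selected on their measured values in TRaGS against TRaWT in both subsets, so those values are a description: no p-value is given for them, and where a limma call is named for them, or how many alternatives kept it, nothing is supported by it. The contrast of Treg with CD25- CD4 cells in TRaWT animals was not the one used in the choice and was tested. It shares the TRaWT libraries with the contrasts that were used, so its p-values are not independent of the choice. In each of the fits, 10 of 10 genes passed the filter on low values, a mean of at least 5 normalised counts.

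The series measured mRNA in T cells from the spleen of 4 TRaWT mice and 4 TRaGS mice, the wild-type animals being littermates. TRaGS is an allele of thyroid hormone receptor alpha whose product no longer binds DNA. CD4+ cells were enriched on magnetic columns and then sorted by flow cytometry into a CD25- fraction, called CD4 here, and a CD25+ fraction, called Treg. The labels call the CD25- cells naive, but the sort as described names CD4 and CD25, and no gate on CD44 or CD62L, the usual surface markers of memory and naive cells, is given in the sources used here. Each animal gave 1 library of each subset, so there were 4 groups of 4 libraries: CD4 TRaWT, CD4 TRaGS, Treg TRaWT and Treg TRaGS. No age, sex, diet or thyroid hormone status is stated for any group, and no agent is named. The sources used here do not say whether the allele was limited to T cells, so a difference that arises in the sorted cells and one that arises outside them cannot be told apart.

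T cells crawl, squeeze through vessel walls and form contacts with other cells by rebuilding the actin network under the plasma membrane, which is held to the membrane by crosslinkers and scaffolds and supported by intermediate filaments around a nucleus stiffened by lamins. Formins and Ena/VASP proteins lengthen actin filaments, and LIM-domain proteins bind filaments and adhesion sites. Galectins are small lectins that bind galactose-bearing sugars on surface glycoproteins, where they cluster receptors and change survival and adhesion. Vim, Crip1, Ahnak, Lmna, Lgals1 and Lgals3 are commonly higher in antigen-experienced than in naive T cells, and several are also known from activated Treg.

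The promoters of 4 genes with groups that did not overlap are shown because the TRaGS change removes the receptor's hold on DNA. They are Pdlim4 and Daam1 for the genotype values in CD4, Evl for those in Treg and Ahnak for the difference between subsets. Separation was not ranked. Vim and Lgals3, which also did not overlap by genotype in Treg, and Flna, which did not overlap between subsets, are not printed. Daam1 and Evl have 2 RefSeq starts each. Both windows are shown for Evl, of which the second lies inside the gene and holds the receptor half-site, and for Daam1 the one at the gene start. Each run is the 250 bases before a RefSeq start, on build GRCm38.p6, written 5′ to 3′ along the gene. Capitals mark GGGCGG, the GC box bound by Sp and Kruppel-like factors, and AGGTCA, the half-site of thyroid hormone receptors, each on either strand.
Pdlim4, chr11:54069018-54069267, minus strand: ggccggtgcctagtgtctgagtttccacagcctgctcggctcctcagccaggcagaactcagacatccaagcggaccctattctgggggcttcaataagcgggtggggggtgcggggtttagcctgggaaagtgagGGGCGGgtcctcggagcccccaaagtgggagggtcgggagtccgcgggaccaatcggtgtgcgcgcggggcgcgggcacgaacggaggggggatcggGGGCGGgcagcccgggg
Daam1, chr12:71830818-71831067, plus strand: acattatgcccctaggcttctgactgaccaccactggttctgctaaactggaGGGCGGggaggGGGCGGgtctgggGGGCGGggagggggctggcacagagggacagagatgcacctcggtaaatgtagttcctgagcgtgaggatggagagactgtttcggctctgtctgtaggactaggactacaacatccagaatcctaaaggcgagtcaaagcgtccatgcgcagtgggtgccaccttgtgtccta
Ahnak, chr19:8989034-8989283, plus strand: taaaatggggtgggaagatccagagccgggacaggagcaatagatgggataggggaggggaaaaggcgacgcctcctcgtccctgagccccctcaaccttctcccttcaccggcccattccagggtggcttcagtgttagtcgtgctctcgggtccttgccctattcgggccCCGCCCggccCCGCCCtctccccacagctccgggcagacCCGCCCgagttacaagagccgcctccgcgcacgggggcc
Evl, chr12:108554470-108554719, plus strand: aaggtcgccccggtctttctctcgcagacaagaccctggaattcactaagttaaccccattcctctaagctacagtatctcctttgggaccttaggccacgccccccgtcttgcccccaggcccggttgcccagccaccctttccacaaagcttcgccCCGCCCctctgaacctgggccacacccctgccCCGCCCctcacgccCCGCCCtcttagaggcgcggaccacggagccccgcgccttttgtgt
Evl, chr12:108605516-108605765, plus strand: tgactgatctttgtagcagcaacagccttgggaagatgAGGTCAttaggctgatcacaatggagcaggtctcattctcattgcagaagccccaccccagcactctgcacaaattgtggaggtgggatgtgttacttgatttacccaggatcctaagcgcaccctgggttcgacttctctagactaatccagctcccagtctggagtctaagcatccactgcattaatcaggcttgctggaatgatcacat
The RefSeq table held 9 of the 10 genes, in 12 windows of 250 bases before a start, and Lgals1 was not among them. AGGTCA was found on either strand in 1 window of Evl, printed above, and 1 of Lmna, and in 14.0% of all 32851 mouse windows of that length. The direct repeat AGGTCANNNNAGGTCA was in none of the 12 windows and in 0.0152% of all windows. GGGCGG was in 1 window each of Crip1, Ahnak, Lmna, Flna, Evl, Pdlim4, Daam1 and Lgals3, and in 32.7% of all windows. The other window of Lmna, of Evl and of Daam1 did not hold it. The windows of Vim, Crip1, Lmna, Flna and Lgals3 and 1 of Daam1 also lay inside the annotated gene. The Vim window held neither GGGCGG nor AGGTCA, but 2 copies of CACCC, the core of Kruppel-like factor sites, which was in 52.0% of all windows. A match describes letters only, and no binding was measured.

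Recovered reads per library ran from 2679119 to 5095278 in CD4 and from 2912038 to 4154027 in Treg, of which the single transcript Gm42418 took 21.1 to 41.1% and 20.8 to 33.0%. The sort labels held in Foxp3, the factor that defines Treg, at 43.1 to 170 normalised counts in the 8 CD4 libraries and 893 to 1330 in the 8 Treg libraries. Library CD4 TRaGS replicate 2 stood apart from the other CD4 TRaGS libraries. Its summed erythroid, neutrophil and platelet markers were at 142 rpm (reads scaled to a common library total) against 1.29 to 3.90 in the other 3 (7 of 13 genes with reads in the group, Elane and Mpo among those at 0). Its macrophage and dendritic cell markers summed to 63.7 against 17.2 to 30.6 (10 of 17 with reads, Adgre1, Marco and Clec9a at 0). Most of those reads were of Flt3 (137) and Lyz2 (108). Its B and plasma cell markers summed to 117 against 37.4 to 57.4 (11 of 12 with reads, Sdc1 at 0), mostly reads of Xbp1 (219), Pax5 (87), Ighd (84) and Cd79a (70). Ms4a1, Cd79b and Cr2 of the same list were at their CD4 TRaGS minimum in this library (2.12, 2.83 and 0.707 normalised counts). The CD4 genotype values of the 10 genes are given below with and without this library. In Treg, the B and plasma cell markers summed to 71.3, 110, 64.7 and 63.3 rpm in the TRaWT libraries and to 202, 156, 114 and 71.5 in the TRaGS libraries, in replicate order. All 9 tested genes of that list had a log2 fold change above 0 in Treg, with a median of 1.10, and limma called 0 of them at an adjusted p under 0.05 (2 at an unadjusted p under 0.05), as did edgeR and DESeq2. The part of these markers in the results below was not tested.

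**Figure D1:**
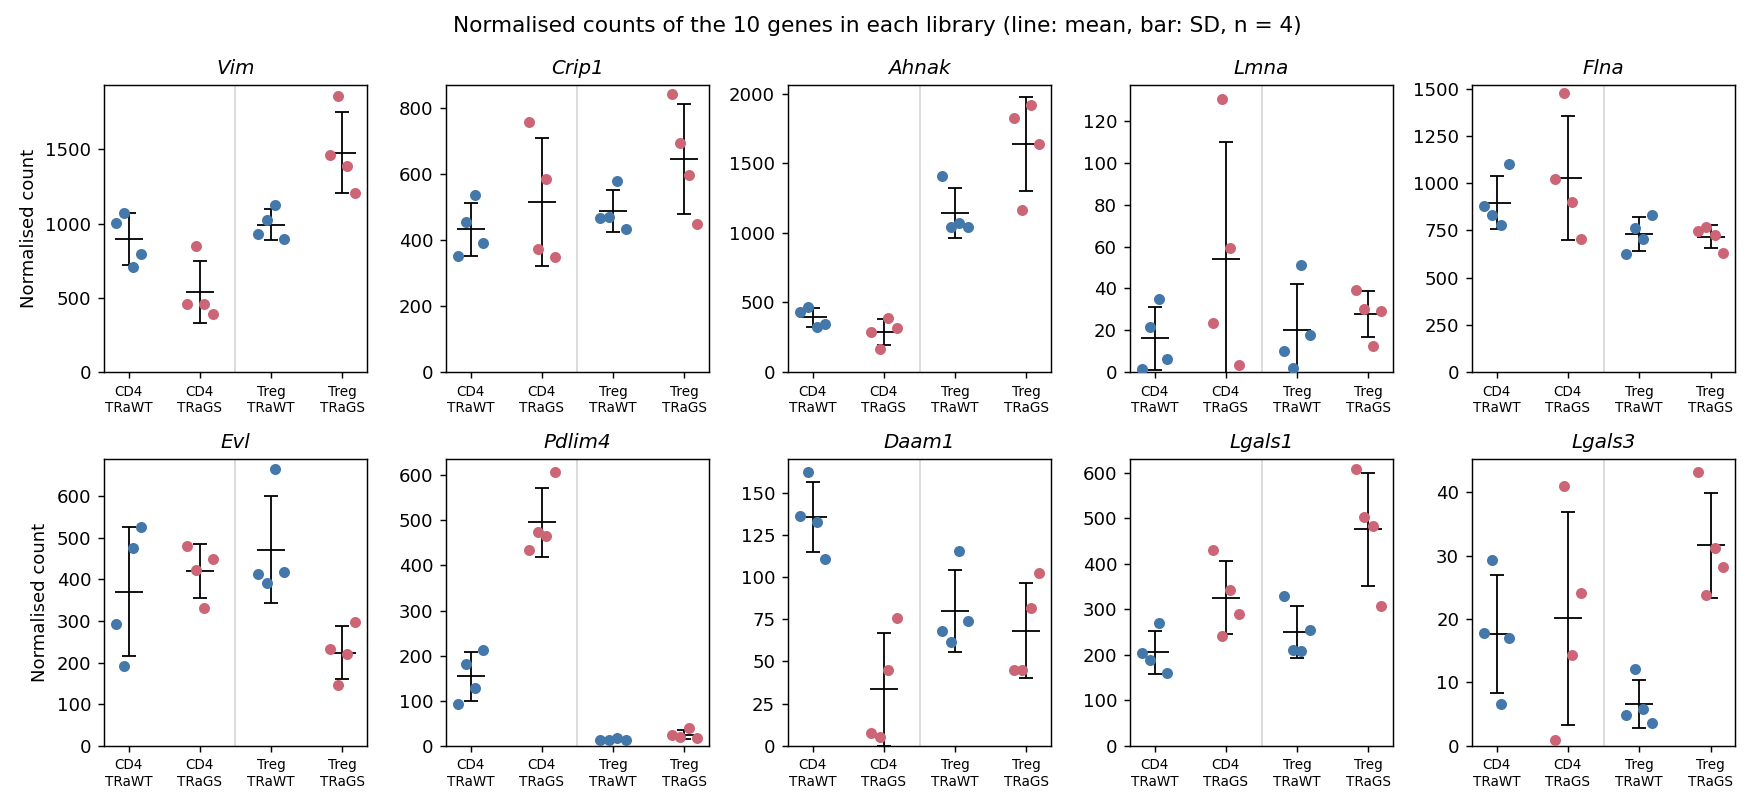
Normalised counts (vertical axes, linear and from 0) of each of the 10 genes in the 16 libraries, with 1 point per library in replicate order, blue for TRaWT and red for TRaGS, a line at the mean and bars of 1 SD that are cut at 0 (n = 4). The CD4 and Treg tables were scaled separately, so points are to be compared on one side of the grey line; Pdlim4 separates the genotypes in CD4 (92.8 to 213 against 435 to 607), and Vim and Evl do so in Treg.

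In CD4, TRaGS against TRaWT, limma called 1 of the 10 genes at an adjusted p under 0.05, Pdlim4, beside 0.0575% of the 10426 genes tested. The genotypes did not overlap in 2 of the 10 genes, Pdlim4 and Daam1, beside 3.16% of the genes tested. In Treg it called 3 of the 10, Vim and Lgals1 higher and Evl lower in TRaGS, beside 0.959% of 11051 genes, and 3 did not overlap, Vim, Evl and Lgals3, beside 5.07%. These contrasts chose the genes, and nothing is read from the counts. In a bulk sample, fewer cells that carry a transcript and less of it per cell cannot be told apart.

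Vim encodes vimentin, the intermediate filament protein of lymphocytes and other mesenchymal cells (chr2:13573927-13582826, plus strand, GRCm38). In CD4 it stood at 1007, 1073, 705 and 796 normalised counts in the TRaWT libraries and at 456, 849, 459 and 394 in the TRaGS libraries. Only TRaGS replicate 2 lay within the TRaWT range, and the other 3 were below every TRaWT library. The means were 895 ± 173 and 540 ± 209 (SD, n = 4), a log2 fold change of -0.78 ± 0.27 (SE) that limma did not call. Without TRaGS replicate 2, the library with the high haemoglobin reads, it was -1.02 ± 0.24 and was called. In Treg the values were 929, 1024, 1123 and 893 in TRaWT and 1459, 1858, 1390 and 1206 in TRaGS. Here every TRaGS library was above every TRaWT library, the reverse of the order of the means in CD4. The means were 992 ± 103 and 1478 ± 275, a log2 fold change of 0.56 ± 0.15, and the call was kept in 10 of 19 alternatives. It ended, among others, when TRaWT replicate 1, 2 or 4 or TRaGS replicate 1, 2 or 3 was left out, with log2 values from 0.45 to 0.65 over the 8 libraries left out in turn.

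Lmna encodes lamins A and C, which stiffen the nuclear envelope (chr3:88480147-88509956, minus strand). It was thinly covered, with 2 to 185 reads per library. In CD4 it was at 1.61, 21.7, 34.8 and 6.10 normalised counts in TRaWT and at 23.5, 131, 59.5 and 3.44 in TRaGS, and the groups overlapped. The highest value was in TRaGS replicate 2, and the log2 fold change was 1.46 ± 1.19 with it and 0.76 ± 1.28 without it. In Treg it was at 9.86, 2.01, 51.3 and 17.6 in TRaWT and 39.0, 30.4, 12.3 and 29.4 in TRaGS, again with overlap. Libraries of 1 group differed by more than the genotype means in both subsets, and no difference was detectable at this depth.

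Crip1 encodes a small cysteine-rich protein that is little more than a LIM domain (chr12:113146316-113153879, plus strand). Its CD4 values were 352, 454, 536 and 390 normalised counts in TRaWT and 759, 373, 585 and 348 in TRaGS, where the spread was 37.5% of the mean against 18.6% in TRaWT. The genotypes overlapped, with a log2 fold change of 0.20 ± 0.31, or 0.33 ± 0.27 without TRaGS replicate 2. In Treg the values were 468, 471, 578 and 434 in TRaWT and 844, 694, 597 and 448 in TRaGS, with overlap and a log2 fold change of 0.37 ± 0.18 that was not called. The Treg TRaGS libraries had the same order in Crip1 and in B and plasma cell markers, whose sums were 202, 156, 114 and 71.5 rpm in replicate order. Without TRaGS replicate 1, the highest in both, the log2 fold change was 0.23 ± 0.20. In Treg TRaWT the highest marker sum was in replicate 2 (110 rpm) and the highest Crip1 in replicate 3 (64.7 rpm). A link between the markers and Crip1 was not tested.

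Pdlim4 encodes a PDZ and LIM domain protein that binds alpha-actinin on actin stress fibres (chr11:54054928-54069014, minus strand). In CD4 it was at 92.8, 182, 127 and 213 normalised counts in TRaWT and at 435, 474, 466 and 607 in TRaGS, with 115 to 671 reads behind each value. Every TRaGS library was above every TRaWT library, and TRaGS replicate 2 lay in the middle of its group. The means were 154 ± 54.1 and 496 ± 76.2, a ratio of 3.22 and a log2 fold change of 1.74 ± 0.37, or 1.76 ± 0.35 without that library. The call was kept in 12 of 19 alternatives and ended, among others, when replicate 1 or 3 of TRaWT or replicate 4 of TRaGS was left out, while the log2 fold change stayed between 1.52 and 1.92. In CD4 limma took the variance of each gene from the trend over genes of like level, so this SE does not measure the spread of Pdlim4 itself. In Treg the gene was near the floor of the assay, at 13.2, 13.1, 17.5 and 12.9 in TRaWT and 24.1, 20.2, 39.0 and 16.3 in TRaGS. Of the TRaGS Treg libraries, only replicate 4 lay within the TRaWT range, and the log2 fold change of 0.71 ± 0.68 was not called.

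Ahnak encodes a very large scaffold protein under the plasma membrane that supports calcium entry in T cells (chr19:8989284-9076914, plus strand). In CD4 it was at 431, 470, 323 and 346 normalised counts in TRaWT and 289, 167, 388 and 314 in TRaGS, with overlap and a log2 fold change of -0.49 ± 0.35. The lowest value was that of TRaGS replicate 2, without which the log2 fold change was -0.24 ± 0.30. In Treg it was at 1410, 1039, 1074 and 1042 in TRaWT and 1825, 1164, 1918 and 1641 in TRaGS. TRaWT replicate 1 overlapped the TRaGS range, and the other 3 TRaWT libraries were below all 4 TRaGS libraries. The Treg means were 1141 ± 180 and 1637 ± 336, with a log2 fold change of 0.51 ± 0.15 that was not called with all libraries and was called without TRaWT replicate 1 or without TRaGS replicate 2.

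Flna encodes filamin A, which crosslinks actin and anchors it to integrins, and lies on the X chromosome (chrX:74223461-74249820, minus strand). The genotypes overlapped in both subsets, with CD4 values of 781 to 1099 normalised counts in TRaWT and 703 to 1477 in TRaGS and Treg values of 625 to 832 and 631 to 766. On the log2 scale the genotype difference was 0.15 ± 0.24 for CD4 and -0.02 ± 0.15 for Treg. The CD4 maximum was again TRaGS replicate 2, without which the log2 fold change was -0.04 ± 0.22. Reads of Xist were found in all 16 libraries and none of Ddx3y, Eif2s3y or Uty. Kdm5d had 1 read in a CD4 TRaWT and 1 in a Treg TRaGS library. The genotypes did not separate by these sex-linked genes. Between subsets limma called Xist higher in Treg, at a log2 fold change of 0.68 in TRaWT and 1.08 in TRaGS.

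Evl encodes an Ena/VASP protein that speeds actin filament growth at the leading edge and the T cell contact (chr12:108554720-108688516, plus strand). In Treg it was at 412, 391, 664 and 418 normalised counts in TRaWT and 232, 145, 221 and 298 in TRaGS. No TRaGS library reached the lowest TRaWT library. The means were 471 ± 129 and 224 ± 62.5, 2.10-fold lower in TRaGS, with a log2 fold change of -1.08 ± 0.22 that was called in 18 of 19 alternatives, the exception being limma without the variance trend. In CD4 it was at 291, 191, 475 and 524 in TRaWT and 481, 422, 330 and 449 in TRaGS, and the TRaGS values lay inside the TRaWT range, with a log2 fold change of 0.28 ± 0.33, or 0.27 ± 0.30 without TRaGS replicate 2. Mir342, which lies within Evl on the same strand, was counted separately with at most 13 reads in a library, and the overlapping genes on the opposite strand, Gm16596 and Degs2, had 0 reads.

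Daam1 encodes a formin that joins Wnt signals to actin assembly (chr12:71831078-71992333, plus strand). In CD4 it was at 136, 162, 133 and 111 normalised counts in TRaWT and at 7.82, 4.95, 45.1 and 75.6 in TRaGS. No TRaGS library reached the lowest TRaWT library, but the 4 TRaGS animals were far apart, with 7 to 66 reads. The means were 136 ± 20.9 and 33.4 ± 33.6, 4.06-fold lower in TRaGS, and the log2 fold change of -2.71 ± 0.78 was not called, nor was that of -2.105 ± 0.63 without TRaGS replicate 2. With TRaGS replicates 1 and 2 alone, the animals whose numbers lie nearest those of the TRaWT animals, it was -4.22 ± 0.97 and was called. In Treg it was at 68.2, 61.4, 115 and 73.9 in TRaWT and 44.8, 44.8, 81.4 and 102 in TRaGS, with overlap and a log2 fold change of -0.27 ± 0.38. In Treg too, replicates 1 and 2 were the lower pair of the TRaGS animals.

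Lgals1 encodes galectin-1, which crosslinks glycoproteins such as CD7, CD43 and CD45 and is secreted by Treg (chr15:78926725-78930465, plus strand). In Treg it was at 329, 209, 209 and 254 normalised counts in TRaWT and 608, 503, 482 and 308 in TRaGS. The groups overlapped by 1 library on each side, TRaWT replicate 1 and TRaGS replicate 4. The means were 250 ± 56.5 and 475 ± 124, a ratio of 1.90 and a log2 fold change of 0.91 ± 0.21, called in 13 of 19 alternatives. The call ended, among others, without TRaWT replicate 2 or 3 or TRaGS replicate 1 or 3, with log2 values from 0.77 to 1.10 over the libraries left out in turn. The Treg TRaGS libraries had the same order in Lgals1 and in B and plasma cell markers, whose sums were 202, 156, 114 and 71.5 rpm in replicate order. In Treg TRaWT the 2 orders differed. The highest marker sum there was in replicate 2 (110 rpm), where Lgals1 was at 209, and the highest Lgals1 was in replicate 1 (71.3 rpm). A link between the markers and Lgals1 was not tested. In CD4 the gene was at 203, 188, 269 and 160 in TRaWT and 429, 240, 342 and 290 in TRaGS, with overlap and a log2 fold change of 0.66 ± 0.38 that was not called, or 0.79 ± 0.34 without TRaGS replicate 2.

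Lgals3 encodes galectin-3, which forms lattices with branched sugars of surface receptors (chr14:47367751-47386160, plus strand). In Treg it was at 4.93, 12.1, 5.83 and 3.52 normalised counts in TRaWT and 43.2, 23.9, 31.2 and 28.3 in TRaGS, or 3 to 12 reads against 26 to 52 reads per library. Every TRaGS library was above every TRaWT library. The means were 6.59 ± 3.78 and 31.6 ± 8.27, a ratio of 4.80, and the log2 fold change of 2.19 ± 0.76 was not called at this depth. In CD4 the values were 17.8, 29.2, 6.53 and 17.1 in TRaWT and 0.978, 41.0, 14.4 and 24.1 in TRaGS, from 1 to 58 reads, and the TRaGS values spanned the whole TRaWT range. The CD4 maximum was TRaGS replicate 2, and the log2 fold change was -0.32 ± 1.25 with it and -0.87 ± 1.30 without it. The sign was not fixed: the mean of the counts was higher in TRaGS (20.1 ± 16.8 against 17.7 ± 9.28), and 3 of 18 alternatives gave a value above 0, edgeR, DESeq2 and the fit without TRaGS replicate 1, the lowest library (0.60).

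**Figure D2:**
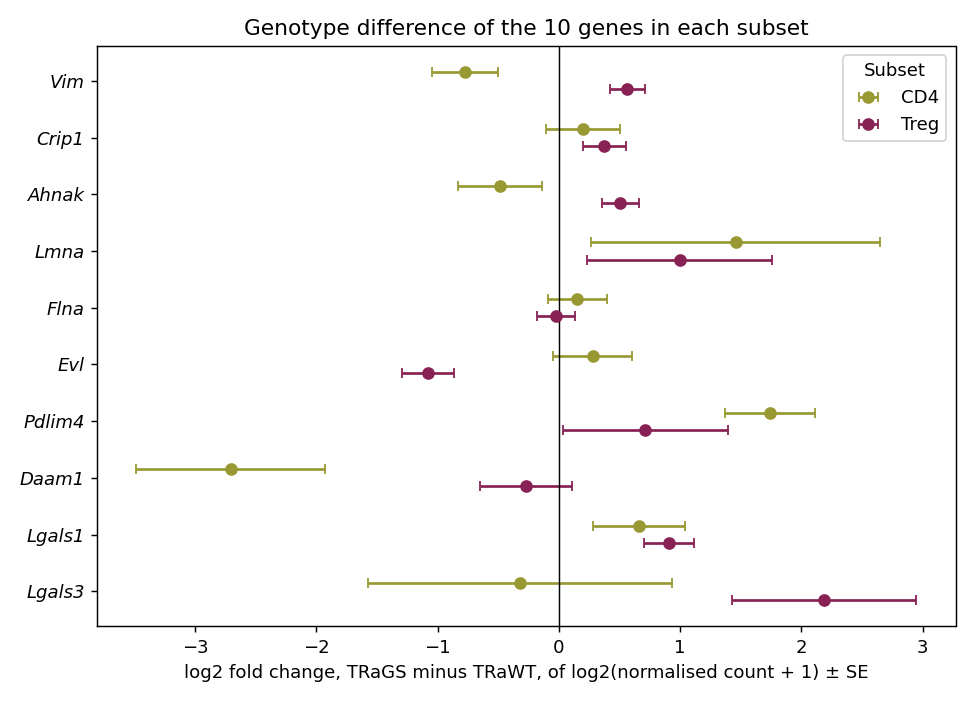
Log2 fold change of TRaGS against TRaWT (horizontal axis, of normalised count + 1) for the 10 genes, in CD4 (olive) and Treg (purple), with bars of 1 SE from limma. Vim, Ahnak and Lgals3 lie below 0 in CD4 and above 0 in Treg, and Flna and Evl the other way round, while the widest bars are those of Lmna, Lgals3 and Daam1 in CD4 and of Lmna, Lgals3 and Pdlim4 in Treg.

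The same genotype contrast was set side by side in the 2 subsets by a term for the difference of the genotype effect between Treg and CD4, fitted on both tables after the recovered reads were rescaled together. For this term limma called 14 of 10838 genes (0.129%), and Vim was the 1 of the 10 genes among them. The Vim difference was 1.34 ± 0.26 on the log2 scale, being the higher value in TRaGS Treg against the lower one in TRaGS CD4, and it was called in 17 of 20 alternatives, one of the exceptions being the fit without the animal as a block. For Ahnak the difference was 1.00 ± 0.28, for Evl -1.35 ± 0.37 and for Daam1 2.45 ± 0.83, none of them called by limma, while DESeq2 called that of Ahnak. The other 6 genes ranged from -1.03 ± 0.76 (Pdlim4) to 2.50 ± 1.44 (Lgals3). These values rest on the genotype contrasts that chose the genes and are a description.

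The question of how Treg differ from CD25- CD4 cells in the wild type was tested as a contrast of the 4 TRaWT animals, each of which gave both subsets. The fit held all 16 libraries, so the TRaGS libraries enter the estimate of the spread behind its SEs and p-values. Limma also drew that estimate towards a trend over genes of like level, with 83.0 prior degrees of freedom. The SEs and p-values between subsets therefore do not measure the spread of a gene alone. The tables had been normalised separately, so the recovered reads of all 16 libraries were scaled by 1 set of factors, and the values are called jointly scaled counts. Ahnak was higher in Treg and Pdlim4 was lower, 2 of the 10 genes beside 3.24% of the 10838 tested. In 4 of the 10 genes the subsets did not overlap, Ahnak, Pdlim4, Flna and Daam1, beside 10.1% of the genes tested.

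Pdlim4 stood at 98.0, 190, 134 and 225 jointly scaled counts in the TRaWT CD4 libraries and at 12.1, 12.0, 16.0 and 11.7 in Treg of the same animals, and it was lower in Treg in 4 of 4 animals. The means were 162 ± 56.7 and 13.0 ± 2.05 (SD, n = 4), 12.5-fold lower in Treg. The log2 fold change was -3.48 ± 0.54 (limma, adjusted p = 1.34e-06), and 0.0461% of the tested genes had a value as low or lower. The call held in 20 of 20 alternatives, with log2 values from -4.01 to -3.15, among them the fit on the 8 TRaWT libraries alone (-3.48 ± 0.63, limma adjusted p = 3.61e-06). In TRaGS animals the means were 522 ± 83.4 and 22.9 ± 9.14, 22.8-fold lower in Treg, with a log2 fold change of -4.51 ± 0.54.

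Ahnak stood at 455, 491, 341 and 365 jointly scaled counts in TRaWT CD4 and at 1301, 954, 985 and 948 in Treg, higher in Treg in 4 of 4 animals and without overlap. The means were 413 ± 71.4 and 1047 ± 170, a ratio of 2.53 and a log2 fold change of 1.34 ± 0.20 (limma, adjusted p = 5.58e-07). The call held in 19 of 20 alternatives and ended without the variance trend, at an adjusted p of 0.075. On the 8 TRaWT libraries alone the SE was 0.18 (limma, adjusted p = 8.36e-12), again with a spread drawn towards the trend over genes. In TRaGS animals the means were 305 ± 99.3 and 1506 ± 311, a ratio of 4.94 and a log2 fold change of 2.34 ± 0.20.

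Flna was lower in Treg in 4 of 4 TRaWT animals, at 824 to 1159 jointly scaled counts in CD4 and 577 to 757 in Treg, without overlap. Its log2 fold change of -0.49 ± 0.19 did not pass the limma test (adjusted p = 0.153). Daam1 was at 117 to 169 in CD4 and 56.3 to 106 in Treg, lower in Treg in 4 of 4 animals, with a log2 fold change of -0.99 ± 0.59 (limma, adjusted p = 0.475). In TRaGS animals the Daam1 value was higher in Treg than in CD4 in 4 of 4, with a log2 fold change of 1.46 ± 0.59. Limma called neither Daam1 difference. That of TRaGS animals was called by DESeq2 and by limma after upper-quartile scaling, 2 of 19 alternatives, and was 1.02 ± 0.56 without TRaGS replicate 2.

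The remaining 6 genes did not pass the test between subsets in TRaWT. Vim was at 743 to 1120 jointly scaled counts in CD4 and 812 to 1030 in Treg, with a log2 fold change of -0.04 ± 0.18 (limma, adjusted p = 0.962), a higher Treg value in 1 of 4 animals and the opposite sign under 3 other scalings. In TRaGS animals Vim was higher in Treg in 4 of 4, with means of 567 ± 217 and 1359 ± 252 and a log2 fold change of 1.31 ± 0.18. Evl had a log2 fold change of 0.22 ± 0.26 in TRaWT (limma, adjusted p = 0.791) and of -1.13 ± 0.26 in TRaGS, where it was lower in Treg in 4 of 4 animals. The 2 comparisons of subsets contrast different animals but come from 1 fit, with shared scaling factors and a shared estimate of the spread. The TRaGS values took part in choosing the genes.

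For Crip1 and Lgals1 the log2 fold changes between Treg and CD4 of TRaWT animals were smaller than their errors, at -0.02 ± 0.22 and 0.09 ± 0.28 (limma, adjusted p = 0.988 and 0.937). Lgals3 was lower in Treg in 4 of 4 TRaWT animals at -1.43 ± 1.02 (limma, adjusted p = 0.578), on 3 to 35 reads per library. Lmna was at 0.10 ± 0.99 (limma, adjusted p = 0.984). In TRaGS animals limma called 5 of the 10 genes between subsets, Vim and Ahnak higher and Flna, Evl and Pdlim4 lower in Treg, beside 8.17% of the 10838 genes, and 5 did not overlap, beside 13.2%. The Flna call, at -0.66 ± 0.19, ended in 6 of 19 alternatives. Among them were upper-quartile, quantile and rpm scaling (as a scaling, rpm is of all recovered reads) and the fit without TRaGS replicate 2 (-0.50 ± 0.19). The Evl call ended under upper-quartile scaling and without the variance trend.

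**Figure D3:**
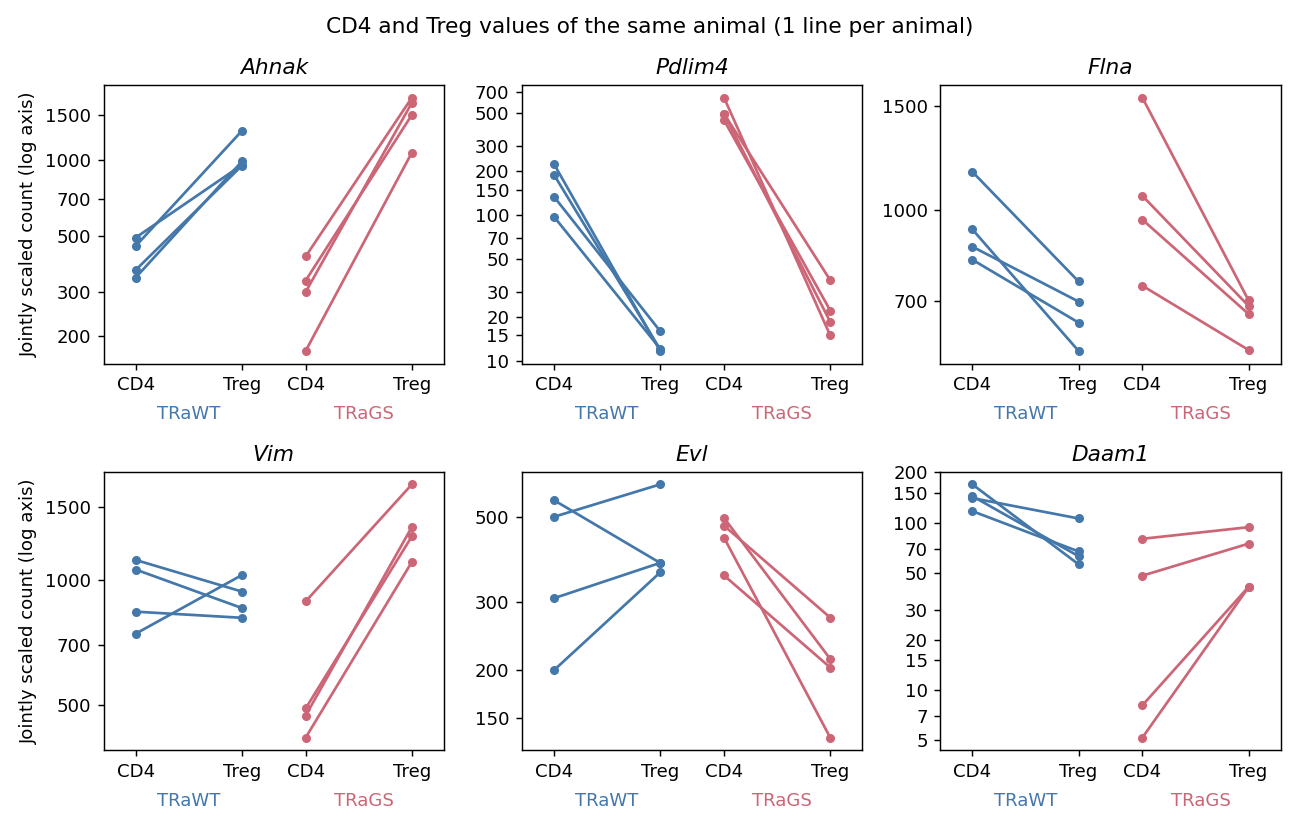
Jointly scaled counts (vertical log axes) in CD4 and Treg of the same animal for 6 of the genes, with 1 line per animal, blue for the 4 TRaWT and red for the 4 TRaGS animals. All 8 lines go up for Ahnak and all 8 go down for Pdlim4 and Flna, while Vim, Evl and Daam1 have lines of differing direction in the 2 genotypes.

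Other genes of the same pathways were taken from 6 lists that name no member. The lists were drawn up with earlier results of these libraries known. The calls and p-values of list genes, by genotype and between subsets, are therefore not independent of that choice. They are not separate support for the values of the genes described above. In CD4, TRaGS against TRaWT, limma called 0 of the 138 genes tested in the 6 lists (7 at an unadjusted p under 0.05), beside 0.0575% of all genes tested. From the lists, edgeR and DESeq2 on the recovered reads also called 0. The list medians lay between -0.17 (serum response factor and its MRTF partners, 8 tested) and 0.25 (intermediate filaments and nuclear envelope, 19 tested), beside -0.01 over all genes. Of the uncalled genes, Limk2, a kinase that inactivates cofilin, was at 67.3 ± 52.7 and 165 ± 69.6 normalised counts (log2 1.55 ± 0.60, limma adjusted p = 0.916). Cd7, a galectin-1 ligand, was at 117 ± 63.0 and 238 ± 20.9 without overlap (1.19 ± 0.46, adjusted p = 0.929). Syne3, a nesprin of the nuclear envelope, was at 15.4 ± 12.9 and 0.799 ± 0.994 (-2.96 ± 1.40, adjusted p = 0.947). Tpm1, a tropomyosin, and Srf, the factor that drives many actin genes, were lower in the mean, at log2 -1.08 ± 0.55 and -0.92 ± 0.50 (both adjusted p = 0.947). Tmsb4x, the actin monomer buffer thymosin beta-4, was at 10534 ± 4239 and 18054 ± 16044 (0.45 ± 0.14, adjusted p = 0.611), a difference that had the opposite sign without TRaGS replicate 2 (-0.08 ± 0.13). Its TRaGS libraries ran from 5885 to 40956, a spread that the SE, taken from the trend over genes, does not measure. Tmsb4x was called in 3 of 19 alternatives, those without TRaGS replicate 3 or 4 and with TRaGS replicates 1 and 2 alone.

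In Treg, TRaGS against TRaWT, limma called 3 of the 143 list genes tested, all higher in TRaGS. The same limit holds for these calls and their p-values, since the lists were drawn up with earlier results known. Of all 11051 genes tested it called 0.959%, 81 higher and 25 lower. Among membrane-cortex proteins 2 of 27 tested were called, Tagln2 and S100a10, both higher in TRaGS. Tagln2, transgelin-2, which bundles actin at the T cell contact, went from 549 ± 86.4 to 936 ± 172 normalised counts without overlap (log2 0.76 ± 0.17, limma adjusted p = 0.0096). The Tagln2 call ended in 2 of 19 alternatives, without the variance trend and without TRaGS replicate 3. S100a10, which joins Ahnak and annexin A2 in 1 complex, went from 667 ± 104 to 1062 ± 291 (0.65 ± 0.16, adjusted p = 0.0374), above every TRaWT library in 4 of 4 TRaGS libraries. Its call ended in 10 of 19 alternatives, among them those without TRaWT replicate 1, 2 or 4 or TRaGS replicate 1, 2 or 3. Of 19 nuclear envelope genes, Syne2, the nesprin that ties the nucleus to actin, was called, from 36.2 ± 18.9 to 119 ± 21.6 without overlap (1.87 ± 0.42, adjusted p = 0.0129). That call ended in 3 of 19 alternatives: without the variance trend, without TRaGS replicate 1 and with TRaGS replicates 1 and 2 alone.

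Limma called 0 of 26 LIM genes, 0 of 47 formin and actin assembly genes, 0 of 16 galectin and ligand genes and 0 of 8 genes of the serum response factor list in Treg, with medians from -0.11 to 0.12 beside 0.01 over all genes. At an unadjusted p under 0.05 these counts were 4, 3, 3 and 2, and edgeR and DESeq2 called 0 in each of these lists. The uncalled genes with the smallest p in these lists were Lima1 at log2 2.71 ± 0.87 (limma, adjusted p = 0.182), Dstn at 1.79 ± 0.57 (0.17), Lgalsl at 2.97 ± 0.99 (0.222) and Egr1 at 0.55 ± 0.18 (0.199). Dstn encodes destrin, which severs actin, and stood at 27.1 ± 25.0 and 68.7 ± 13.9 normalised counts. Lima1 and Lgalsl were low, with TRaWT values from 0 to 25.5 and from 0 to 23.5.

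Between Treg and CD4 in TRaWT, 13 of the 143 list genes tested were called, 11 lower and 2 higher in Treg. Of all 10838 genes tested 3.24% were called, 195 higher and 156 lower. That split of all genes moved with the scaling, to 270 higher and 79 lower under upper-quartile scaling and to 299 and 103 in rpm. The split of the list genes was not counted under these scalings. Lower were 2 of 27 LIM genes, Pdlim1 and Limd2, and 3 of 27 cortex genes, Actn1, Tagln2 and Coro1a. Pdlim1, a relative of Pdlim4 that binds alpha-actinin too, went from 305 ± 87.4 jointly scaled counts in CD4 to 96.2 ± 28.1 in Treg (log2 -1.66 ± 0.36, limma adjusted p = 0.0013). Actn1, the alpha-actinin itself, went from 1775 ± 239 to 523 ± 66.6 (-1.76 ± 0.18, adjusted p = 9.92e-13) and was called in 20 of 20 alternatives. Limd2 fell by 0.87 ± 0.15 on the log2 scale (adjusted p = 1.22e-05), and Tagln2, from 1014 ± 267 to 503 ± 76.7, fell by 0.98 ± 0.19 (adjusted p = 0.000212). The calls of Pdlim1, Limd2 and Tagln2 each held in 19 of 20 alternatives. They ended without the variance trend (limma, adjusted p = 0.0706, 0.244 and 0.236).

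Of 46 formin and actin assembly genes, 4 were lower and 1 was higher in Treg. Cyfip1, part of the WAVE complex that starts branched actin, rose from 15.1 ± 8.51 to 113 ± 23.6 jointly scaled counts (log2 2.97 ± 0.67, limma adjusted p = 0.00179). The Cyfip1 call ended in 3 of 20 alternatives: without the filter on low values, without the variance trend and without TRaWT replicate 1. Gsn, gelsolin, fell from 86.5 ± 37.6 to 17.3 ± 10.5 (-2.39 ± 0.71, adjusted p = 0.0389), a call that ended in 8 of 20 alternatives, among them edgeR, upper-quartile and rpm scaling and the fits without TRaWT replicate 1, 2 or 3. Of 16 galectin and ligand genes, 2 were lower, St6gal1, whose sialic acid masks galectin-1 sites, and Spn, the galectin-1 ligand CD43, at -1.13 ± 0.34 and -0.50 ± 0.15 (adjusted p = 0.0441 and 0.0354). Both of these calls ended in 9 of 20 alternatives, among them upper-quartile and rpm scaling, the fit without the animal as a block and those without any 1 of the 4 TRaWT animals. Elk1, a partner of serum response factor, rose from 3.13 ± 0.966 to 44.7 ± 6.42 (3.50 ± 1.00, adjusted p = 0.0288). This call too ended without any 1 of the 4 TRaWT animals, and also without the filter on low values and without the variance trend (6 of 20 alternatives). None of 19 nuclear envelope genes was called, Sun2 being nearest at -0.58 ± 0.19 (adjusted p = 0.08), with 3 of 20 alternatives calling it. That list had 4 genes at an unadjusted p under 0.05, and edgeR called 0 and DESeq2 called 2.

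**Figure D4:**
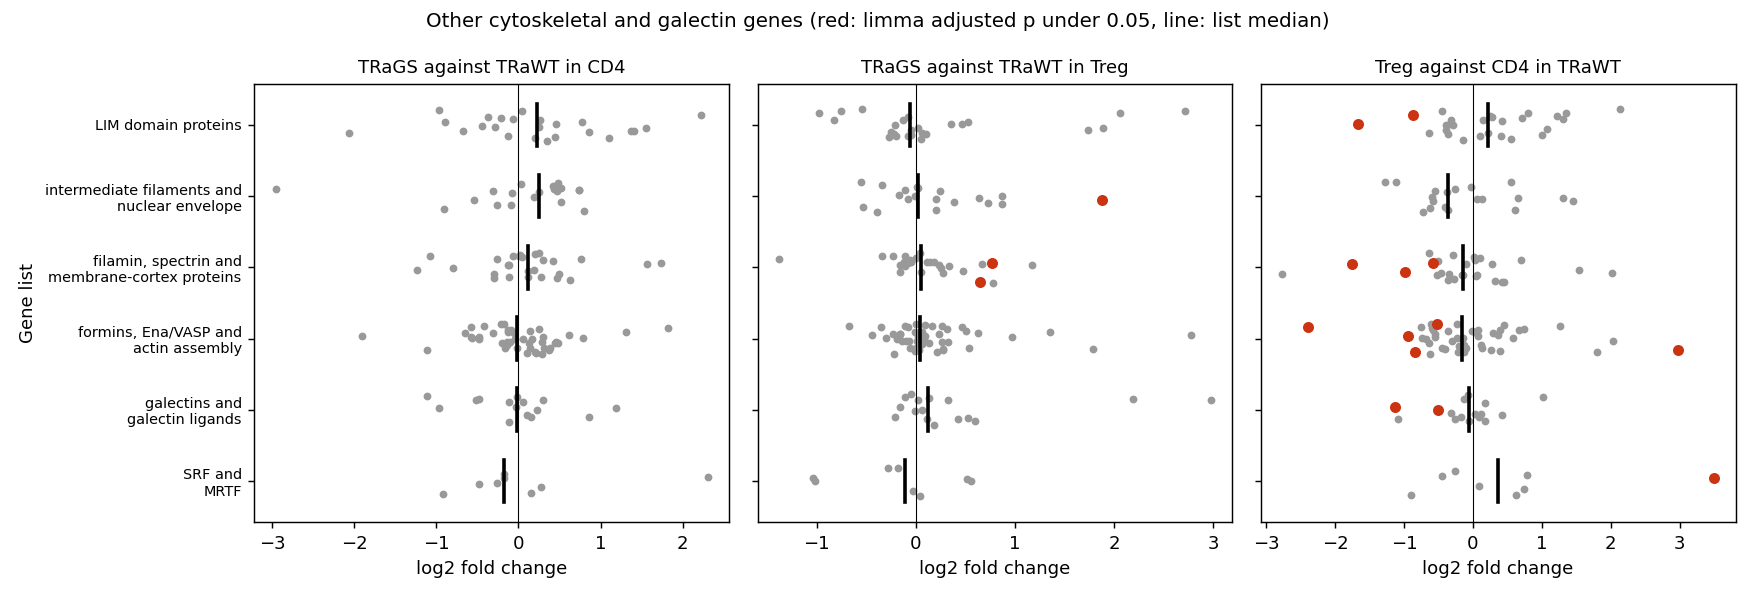
Log2 fold changes (horizontal axes) of the tested genes in 6 lists (rows) that hold none of the 10 genes, for TRaGS against TRaWT in CD4, the same in Treg, and Treg against CD4 in TRaWT, with 1 point per gene, black bars at list medians and red points for genes called by limma. No point is red in CD4, 3 are red in Treg, and 11 of 13 red points between subsets in TRaWT lie below 0. Of all genes tested between subsets in TRaWT, 195 were called higher and 156 lower, a split that moved with the scaling.

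The genes whose pattern over the 16 libraries was most like that of Vim, Crip1 and Lgals1 were ranked by the root mean square difference of mean-centred log2 jointly scaled counts among 5922 genes. For Vim they were Kdm5c (0.32), Tap1 (0.35) and Chd9 (0.36), and none of the other listed genes that were compared was near, Crip1 being at rank 914. For Crip1 they were Wdr26 (0.26), Lsp1 (0.29) and Cc2d1b (0.29), with Lgals1 at rank 46 (0.35). For Lgals1 they were Cltc (0.32), Srpr (0.35) and Crip1 at rank 3 (0.35). Pdlim4 was at rank 5921 for each of the 3 genes, the last place. The libraries share animals and depth, and this ranking is a description without a test.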

How the data were processed

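Libraries of mRNA 3′ ends were made with a forward-strand 3′ kit, per the labels' protocols. The submitters' processing notes name the build GRCm38, and no label used here names the aligner or counting program. Deposited by the authors was 1 table of normalised counts per subset, a signal unit in which reads were divided by 1 factor per library. Each table was scaled by itself. All columns were used. Dividing each library by its smallest step turned 100% of its values into whole reads (tolerance 0.001), and edgeR run on these called 3 genes by genotype in CD4 and 90 in Treg. The kit as described names no molecular identifiers, so reads may be copies of 1 molecule.

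Symbols came from the reference gene table (47224 of 47643 identifiers matched) and gene coordinates from a GENCODE annotation of GRCm38. The 10 genes and the lists were chosen with earlier results of these data known. In the marker and pathway lists, 2 of 11 symbols of the serum response factor list and 1 of 21 of the galectin list were not matched.

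Genotypes were compared within each table with limma 3.58.1 (R 4.3.3) on log2(value + 1) with a variance trend, over genes with a mean of at least 5, with Benjamini-Hochberg adjustment at 0.05. This scale understates fold changes of low genes. The prior degrees of freedom were infinite in CD4, 36.8 in Treg and 83.0 in the fit of both subsets. Subsets were compared on recovered reads of both tables, scaled together by median-of-ratios factors, with the animal as a block, since the titles give the same animal number for the 2 subsets. Genes of the lists were named by rule: up to 4 called genes of largest change per list by genotype, up to 2 between subsets, or the 1 with the smallest p. The 3 genes most alike to Vim, Crip1 and Lgals1 were sought among those with a mean of at least 50. Each library is 1 animal, and no pair of replicates agreed within sampling noise (lowest chi-square per degree of freedom 7.64). Replicate numbers name different animals in the 2 genotypes and do not pair them.

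The alternatives tried were other pseudocounts (0.5, 5), other filters (none, mean 20) and other scalings (upper-quartile, quantile, rpm of all recovered reads). Further ones were no variance trend, the count models of edgeR 4.0.16 and DESeq2 1.42.0, and blocks. Fits were also made leaving out each library or animal, with TRaGS replicates 1 and 2 alone, with the TRaWT libraries alone and on per-animal differences. The fits were also run on simulated libraries with no animal effect and with changes only in genes of higher read counts. The outcome is not given here, and nothing is read from it.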

Additional observations from a re-analysis of the deposited data

Results flagged for a closer look

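Of 40 groups of 4 libraries (10 genes in 4 groups), 4 had a library far from the other 3 by Dixon's test at 95%, where chance gives about 1 in 20. Vim in CD4 TRaGS was at 849.1 normalised counts in replicate 2 against 394 to 459 in the other 3. Ahnak in Treg TRaWT was at 1410 in replicate 1 against 1039 to 1074. Evl in Treg TRaWT was at 663.6 in replicate 3 against 391 to 418. Pdlim4 in Treg TRaWT was at 17.49 in replicate 3 against 12.9 to 13.2, a difference of few reads.

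The genotype effect on Vim differed between the subsets by 1.345 on the log2 scale in limma, with TRaGS above TRaWT in Treg and below it in the CD4 mean. Without both libraries of TRaGS replicate 2 it was 1.47 ± 0.25 and was still called.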

How the results depend on the processing

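Counts of called genes were 6 in CD4, 106 in Treg, 351 between subsets in TRaWT, 886 in TRaGS and 14 for the difference of genotype effects, of which the 10 genes made up 1, 3, 2, 5 and 1. Without a filter on low values the counts were 1, 62, 140, 385 and 1, with more genes tested, and the 10 genes gave 0 in CD4, 1 in Treg and 0 for the difference. Without the variance trend they were 0, 0, 75, 253 and 0 (538, 899, 1348, 2067 and 634 at an unadjusted p under 0.05), and the 10 genes gave 0, 0, 1, 2 and 0. Upper-quartile scaling gave 2 in CD4 (0 of the 10 genes) and 6 for the difference. edgeR gave 3 in CD4, and DESeq2 gave 10 in CD4, 662 between subsets in TRaWT, 1460 in TRaGS and 38 for the difference (2 of the 10 genes, Vim and Ahnak). TRaGS replicates 1 and 2 alone gave 27 in CD4 and 42 in Treg, and the TRaWT libraries alone gave 569 between subsets. Leaving out 1 library or animal gave 3 to 9 in CD4 (0 to 2 of the 10 genes), 56 to 108 in Treg (1 to 3), 172 to 596 between subsets in TRaWT, 538 to 873 in TRaGS and 9 to 27 for the difference. The cause of these changes was not tested except where the number of genes or libraries differs by construction.

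The replicate block (replicate number as a block) gave 4 genes in CD4 and 112 in Treg, with 1 and 3 of the 10 genes as before, and same-numbered animals of the 2 genotypes did not deviate together. Without the animal as a replicate block the difference of genotype effects gave 3 genes and 0 of the 10, and the subset comparisons gave 236 in TRaWT and 747 in TRaGS.

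The split of calls depended on scaling: between subsets in TRaWT 195 were higher and 156 lower, against 270 and 79 under upper-quartile scaling and 299 and 103 in rpm. In TRaGS 483 and 403 became 1074 and 142, and 832 and 202. In Treg by genotype 81 and 25 became 86 and 11 under upper-quartile scaling. For the difference of genotype effects 2 and 12 became 4 and 2 under upper-quartile scaling, 5 and 6 under quantile normalisation and 4 and 8 in rpm. In CD4, quantile normalisation gave 5 and 1. The median of all genes between subsets moved from 0.09 to 0.25 (upper-quartile) and 0.24 (rpm) in TRaWT, and from 0.19 to 0.54 and 0.43 in TRaGS.

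In TRaWT between subsets, small differences changed sign: Vim to 0.13 (upper-quartile), 0.00761 (quantile) and 0.11 (rpm), and -0.2037 to 0.05581 with animals left out. Crip1 went to 0.15, 0.048 and 0.13, and to -0.0949 to 0.0216 with animals left out. Lmna went to -0.45 (quantile), and to -0.51 to 1.15 with animals left out, and Lgals1 to -0.04938 to 0.307. Among list genes, Tmsb4x in CD4 ranged from -0.07872 to 0.8542 with a library left out. Ahnak and Pdlim4 kept their direction in 20 of 20 alternatives. Read counts were low for Lmna and Lgals3, which had under 10 reads in some libraries, for Pdlim4 in Treg and for Daam1 in CD4 TRaGS. Daam1 had 7 reads in CD4 TRaGS replicate 2, the library with the most recovered reads (5095278). It had 91 in CD4 TRaWT replicate 4, which had 2869194.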
